A study of Homo sapiens with 12 samples.

Results

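The genes described here are 36 members of the TGF-beta superfamily pathway, comprising 8 ligands, 5 proteins of ligand latency and processing, 3 extracellular antagonists, 5 type I receptors, 4 type II receptors, 2 co-receptors, 5 SMAD proteins and 4 target or corepressor genes. They were chosen by name from the pathway, without the inhibitory SMADs and the ID genes, and with earlier results of these data known. All 36 were found by symbol among the 62702 gene entries with values in the deposited count table, and 33 of them had enough counts to enter the tests. The cells were MCF10AT, a premalignant derivative of the human breast epithelial line MCF10A that carries an activated RAS gene. Every library came from cells expressing the long human prolactin receptor together with the intermediate receptor (genotype hPRLrL/hPRLrI), and in the deleted groups the I-tail, the end of the intermediate receptor, had been removed (hPRLrL/hPRLrI I-tail deleted). After 24 h without serum, cells of each genotype were left untreated or given prolactin (PRL) at 250 ng/ml for 2 h, which gave 4 groups (intact untreated, intact PRL, deleted untreated and deleted PRL) of 3 libraries, labelled as biological replicates. The study asked what the I-tail does in breast cancer cells. Both genotypes carry the long receptor, so no group lacks a PRL receptor. Whether each genotype was 1 clone or a pool of cells, and whether untreated cells received a vehicle, was not stated in the labels. Counts per gene sum over all transcripts of the gene and do not read the I-tail, so the genotype labels could not be checked from the receptor's counts.

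Ligands of the TGF-beta superfamily bind a type II receptor, which recruits and phosphorylates a type I receptor. The type I receptor then phosphorylates SMAD2 and SMAD3 for TGF-beta and activin, or SMAD1 and SMAD5 for bone morphogenetic proteins (BMPs), and these enter the nucleus with SMAD4. In mammary epithelium the pathway is known for restraining growth and, in transformed cells, for promoting a mesenchymal change, while PRL signals mainly through STAT5.

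The libraries held 36120808 to 57324865 counts, and 19073 to 25200 genes had counts. Levels are given as CPM, counts scaled by TMM to a common library size. Levels of different members are compared per kb of exon sequence unless stated. Cell type markers, their sums and the values set beside them are in CPM without regard to length. The epithelial label was checked with 8 markers, all of which had counts in 12 of 12 libraries. Their sum was 1842 to 6502 CPM in intact untreated, 2081 to 8242 CPM in intact PRL, 1980.2 to 8310.4 CPM in deleted untreated and 2250.1 to 10547 CPM in deleted PRL libraries, with EPCAM at 1.16 to 5.33 CPM and CDH1 at 9.89 to 68.7 CPM. Of 6 leukocyte markers, CSF1R gave nearly the whole sum, which was 20.6 to 33.8 CPM in intact untreated and 35.9 to 42.9 CPM in intact PRL libraries, and 23.8 to 43.7 and 22.4 to 47.7 CPM in the deleted pair. PTPRC and CD3E had counts in 1 library each, and CD68 and LYZ were near 0. Of 6 fibroblast markers, COL1A1 (97.1 to 238 CPM) and DCN (212 to 472 CPM) were abundant and PDGFRB had 11.3 to 27.4 CPM. COL1A2, PDGFRA and LUM stayed at or under 0.676 CPM. The sum of the 6 was 422 to 511, 424 to 477, 431 to 575 and 477 to 616 CPM in the 4 groups in the order above. The part of these markers in the results was not tested.

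**Figure D1:**
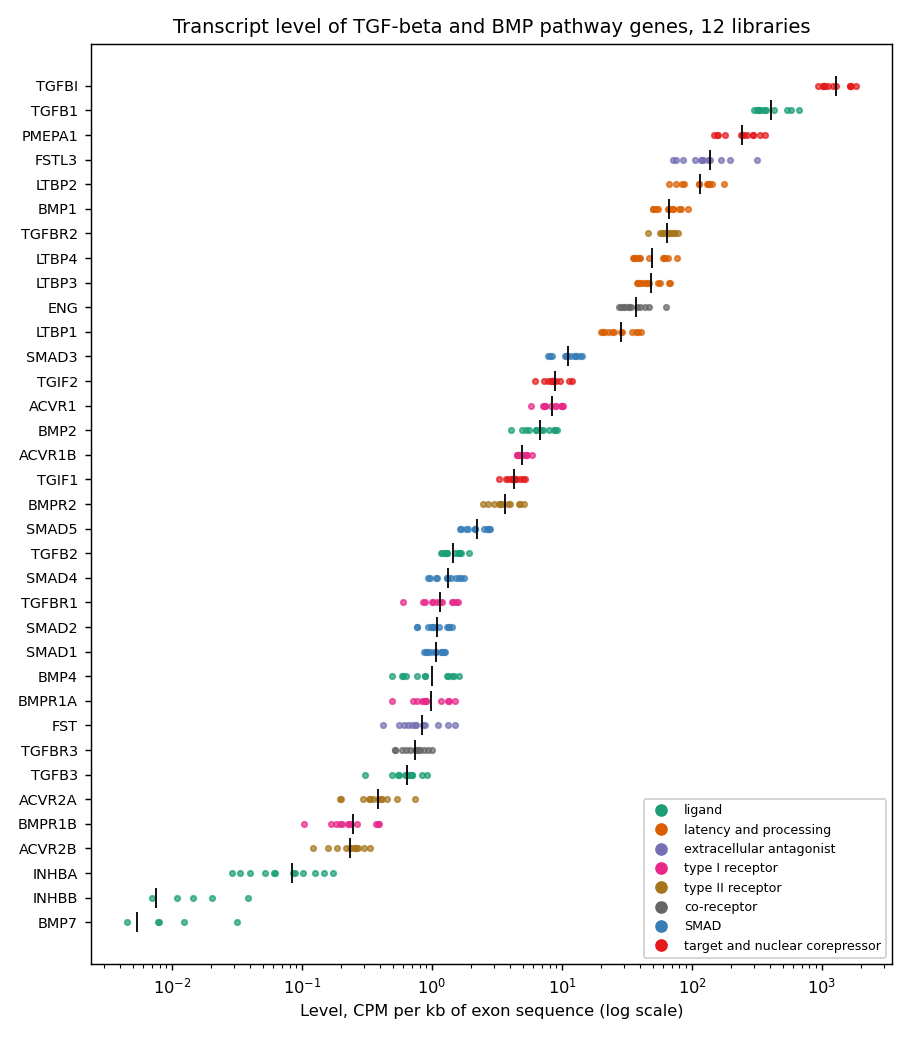
Level of each member in CPM per kb of exon sequence (log scale). Points are the 12 libraries, black ticks the mean over them and colours the role in the pathway; libraries at 0 are not drawn, and GREM1, at 0 in all 12 libraries, is left out. TGFBI and TGFB1 led at 1289 and 406 CPM per kb, and INHBB and BMP7 were lowest.

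The pathway was expressed at very different levels between its members. Among ligands TGFB1, the prototype of the family, stood at a mean of 406 CPM per kb, above 99.5% of the 17059 genes with a length, and its level per kb was 280.1 times that of TGFB2 and 635 times that of TGFB3. BMP2 led the BMP ligands at 6.74 CPM per kb, 6.75 times the level of BMP4. The activin subunit gene INHBA reached only 0.0831 CPM per kb. The activin subunit gene INHBB had 13 counts and BMP7 had 14 counts in all 12 libraries together, each with 7 libraries at 0, and the BMP antagonist GREM1 had none. A count of 0 allowed a level of up to 0.0521 to 0.0897 CPM per library (3 counts, counting error only). These 3 genes did not pass the filter on low counts and were not tested.

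All 5 genes of latency and processing were abundant, the lowest of them above 91.2% of genes per kb. The latent TGF-beta binding protein genes LTBP3, LTBP4 and LTBP1 and the related matrix protein gene LTBP2 had means of 48.1, 49.5, 28.4 and 116 CPM per kb, and BMP1, a protease of matrix and latency proteins, 66.7 CPM per kb. The activin antagonist FSTL3 had 137 CPM per kb, 163 times the level of follistatin (FST).

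Receptor classes were uneven. The type II receptor TGFBR2, which binds TGF-beta, had 64.7 CPM per kb, whereas its type I partner TGFBR1 had 1.14, a ratio of 56.6. The highest type I receptor was ACVR1, a BMP and activin receptor, at 8.41 CPM per kb, followed by the activin receptor ACVR1B at 4.94, while the BMP receptors BMPR1A and BMPR1B had 0.973 and 0.246. The co-receptor ENG (endoglin), best known from endothelium, had 37.03 CPM per kb, 50.5 times TGFBR3 (betaglycan). Beside ENG at 108 to 249 CPM, the summed endothelial markers PECAM1, VWF, CDH5, KDR, TEK and CLDN5 reached 1.22 to 3.30 CPM.

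SMAD3 stood above its partner SMAD2, at 11.1 against 1.09 CPM per kb, and SMAD4, SMAD1 and SMAD5 had 1.33, 1.06 and 2.23. The size of the gap between SMAD3 and SMAD2 depends on annotated length. SMAD2 has 36.4 kb of exon sequence and SMAD3 9.11 kb, with longest transcripts of 34.5 and 6.25 kb. Without length the means were 39.5 CPM for SMAD2 and 102 CPM for SMAD3. Among targets, TGFBI, a secreted matrix protein induced by TGF-beta, was the highest of all 36 genes at 1289 CPM per kb. PMEPA1, a TGF-beta-induced membrane protein that limits SMAD signalling, had 244, and the nuclear corepressor genes TGIF1 and TGIF2 had 4.26 and 8.75 CPM per kb. With the longest transcript in place of all exon sequence, LTBP3 moved above TGFBR2 and TGIF1 above TGIF2, while the member leading each class was the same with either length.

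The titles fall into consecutive runs of 4, each with 1 library of every group. In the edgeR fit without a term for these runs of titles, no member was called for PRL at 2 h. With the term 4 were called (BMP4, PMEPA1, FSTL3 and SMAD3, below). For the averaged effect, other settings without the run term called 0 to 3 members, among BMP4, PMEPA1 and FSTL3. In the effect averaged over both receptor pairs, as fitted without that term, 0 of 33 members passed an adjusted p of 0.05 in edgeR's quasi-likelihood test with Benjamini-Hochberg adjustment over 17677 genes, where 0.119% of all genes did. At an unadjusted p under 0.05 there were 6 of 33 members, 4 higher and 2 lower with PRL, beside 3.81% of all genes. The 2 lower were the BMP ligand genes BMP4 and BMP2, and the 4 higher were the target PMEPA1, the antagonists FSTL3 and FST, and SMAD3. The median log2 fold change was 0.044 over the 33 members, with 19 above 0, and -0.023 over all genes. In this fit the median half-width of a member's 95% interval was 0.386 before adjustment over all genes. Smaller changes were thus mostly not detectable in it with 3 libraries a group. That width includes variation between the runs of titles, which the fit with the run term takes out. Larger changes could miss the adjusted threshold too, as BMP4 at -1.03 and FSTL3 at 0.80 did. A count of 0 called therefore does not exclude changes of that size. Since RNA of whole cultures was measured, less RNA per cell and fewer expressing cells cannot be told apart.

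**Figure D2:**
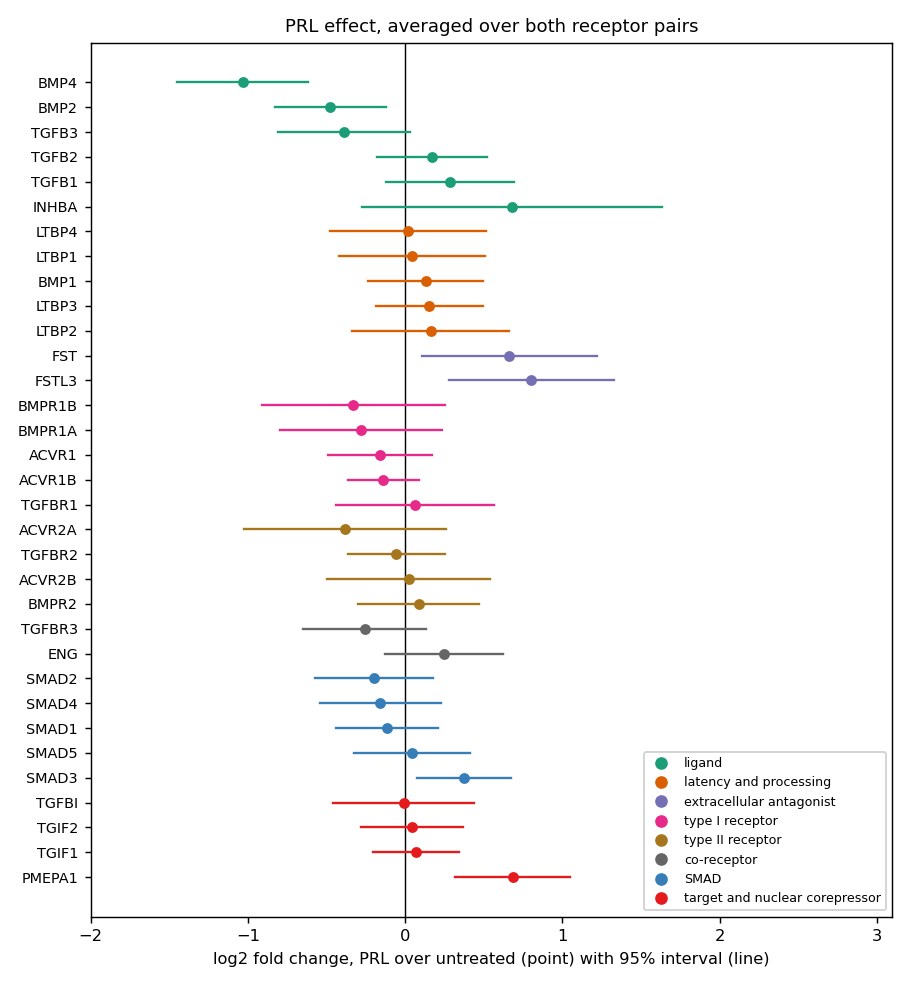
Averaged log2 fold change of each tested member, PRL over untreated (points), with its 95% interval (lines), ordered and coloured by role. BMP4 lies lowest at -1.03 and FSTL3 highest at 0.80; the intervals of 6 members leave 0 out, before adjustment over all genes.

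BMP4 (ENSG00000125378, chr14:53949736-53958761, minus strand in GENCODE 29 on GRCh38) had the strongest difference. It stood at 2.71, 4.38 and 4.51 CPM in the intact untreated libraries, 1.81, 2.72 and 2.34 CPM with PRL, 4.11, 4.96 and 4.04 CPM in the deleted untreated libraries and 1.96, 1.83 and 1.51 CPM with PRL. Each PRL group lay below its untreated group except that 1 intact PRL library, at 2.72 CPM, exceeded the lowest intact untreated library by a small margin. The averaged log2 fold change was -1.03 ± 0.19 (SE; 95% interval -1.45 to -0.62; adjusted p = 0.0761), a level 2.05 times lower with PRL. It was -0.76 ± 0.27 with the intact and -1.31 ± 0.27 with the deleted I-tail, 2 estimates that share no library.

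BMP4 passed the threshold in some other fits and not in others. DESeq2 called it (log2 fold change -1.02, adjusted p = 4.08e-04) together with PMEPA1, where 0.624% of all genes with an adjusted p were called. A fit with an offset for GC content and transcript length, chosen after seeing the data, called BMP4 alone among members (-1.06, adjusted p = 0.00904), beside 0.399% of all genes. The BMP4 log2 fold change thus lay between -1.06 and -1.02 in the DESeq2 and offset fits, against -1.03 in the edgeR fit without an offset. Fits with RLE or upper-quartile scaling, the stricter filter or limma-voom did not call BMP4. With each library left out in turn its log2 fold change ran from -1.13 to -0.96. Among those fits it was called only without intact untreated library 1.

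BMP2 (ENSG00000125845, chr20:6767664-6780280, plus strand), the other BMP ligand in the group, lay at 31.6, 25.7 and 31.00 CPM in the intact untreated libraries, 22.7, 17.8 and 19.01 CPM with PRL, 32.7, 28.5 and 19.9 CPM in the deleted untreated libraries and 24.8, 22.7 and 14.7 CPM with PRL. The intact groups did not overlap, and the deleted groups did. Within each run of titles the deleted PRL library of BMP2 lay below the deleted untreated one. Its averaged log2 fold change was -0.48 ± 0.16 (adjusted p = 0.94). Of the other ligands, TGFB1 had 0.28 ± 0.19, TGFB2 0.17 ± 0.16, TGFB3 -0.39 ± 0.19 and the low INHBA 0.68 ± 0.44. Each had an edgeR adjusted p of 0.98 without the run term. Within each run the PRL library of TGFB1 stood above the untreated library of its genotype, and that of TGFB3 below. TGFB2 and INHBA were mixed, and none of these ligands was called with the run term.

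**Figure D3:**
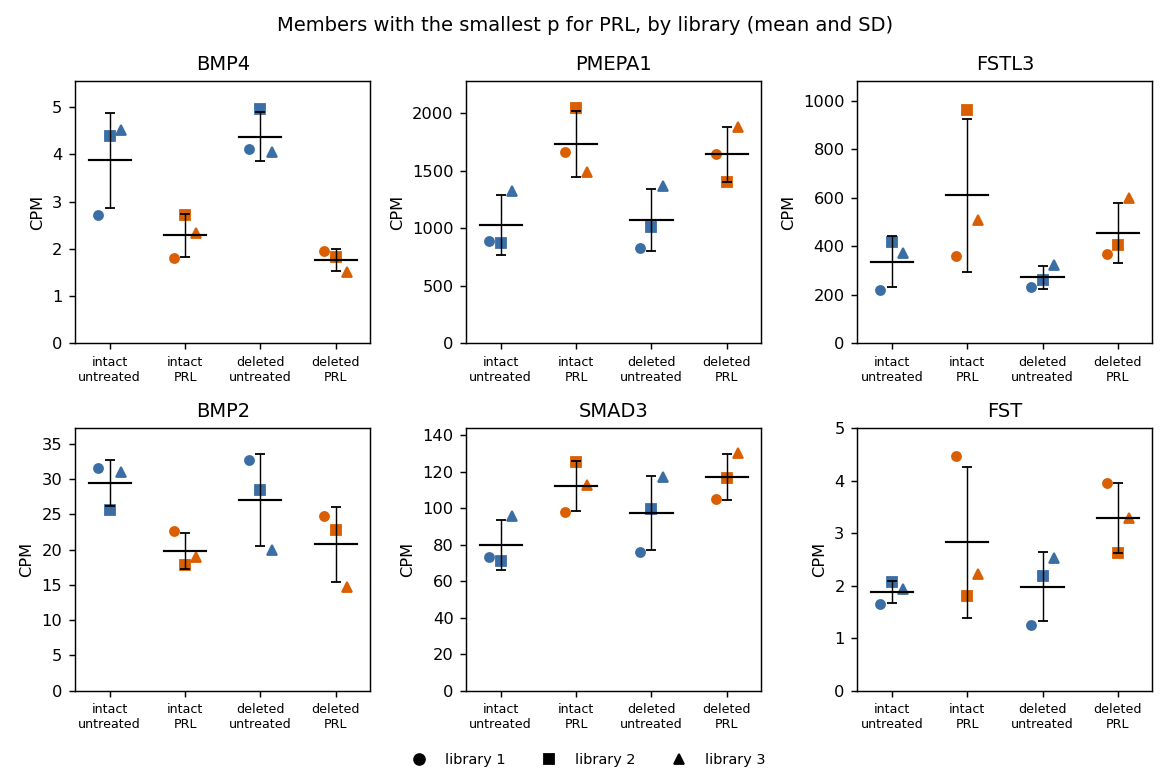
CPM of the 6 members with the smallest p for the averaged PRL effect, by group (blue untreated, orange PRL; symbols number the libraries within a group; black line and bar, mean and SD of 3). For PMEPA1 every PRL library lies above every untreated library of its genotype. The deleted groups of BMP4, FSTL3 and FST, and the intact groups of BMP2 and SMAD3, do not overlap. The share of all genes that separate within a single receptor pair was not counted.

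PMEPA1 (ENSG00000124225, chr20:57648392-57711536, minus strand) was the only member whose PRL and untreated libraries were separate in both receptor pairs. It stood at 889, 869 and 1327 CPM in the intact untreated libraries, 1667, 2048 and 1486 CPM with PRL, 833, 1015 and 1368 CPM in the deleted untreated libraries and 1644, 1405 and 1882 CPM with PRL. Over all genes, 0.679% lay above untreated in both pairs in this way and 0.373% below, and no member lay below. The share of all genes whose groups separate within a single receptor pair or a single treatment was not counted. Where a member's groups are said not to overlap there, that describes its values only. The averaged log2 fold change was 0.69 ± 0.17 (95% interval 0.32 to 1.05; adjusted p = 0.328), with 0.75 ± 0.24 in the intact and 0.62 ± 0.24 in the deleted pair. DESeq2 called it (adjusted p = 0.0229). NKILA, a long noncoding RNA gene whose exons overlap PMEPA1 on the opposite strand, averaged 4.98 CPM and had 0.59 ± 0.21 (adjusted p = 0.976); no source used here says whether counting used strand, and without it reads of the 2 genes cannot be told apart where they overlap.

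Both tested antagonists of activin were higher with PRL, without passing the test in the edgeR fit that had a count filter and no run term. FSTL3 passed in the fit with the run term and in the fit without a count filter. FSTL3 (ENSG00000070404, chr19:676365-683399, plus strand) had 219, 419 and 372 CPM in the intact untreated libraries, 359, 965 and 508 CPM with PRL, 232, 261 and 323 CPM in the deleted untreated libraries and 367, 405 and 598 CPM with PRL. The intact groups overlapped, and in the deleted pair the lowest PRL library lay above the highest untreated one. The averaged log2 fold change was 0.80 ± 0.24 (adjusted p = 0.653); it was 0.56 without the intact PRL library at 965 CPM, the highest of all 12. FST (ENSG00000134363, chr5:53480409-53487134, plus strand) had 1.65, 2.07 and 1.93 CPM in the intact untreated libraries, 4.47, 1.79 and 2.22 CPM with PRL, 1.25, 2.18 and 2.52 CPM in the deleted untreated libraries and 3.96, 2.63 and 3.29 CPM with PRL. Its deleted groups did not overlap and its intact groups did. Its log2 fold change of 0.66 ± 0.26 (adjusted p = 0.98) was 0.42 without the intact PRL library at 4.47 CPM.

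Of the SMADs, SMAD3 (ENSG00000166949, chr15:67063763-67195195, plus strand) lay at 73.03, 71.1 and 95.6 CPM in the intact untreated libraries, 97.9, 125 and 113 CPM with PRL, 75.9, 99.3 and 117 CPM in the deleted untreated libraries and 105, 117 and 129.97 CPM with PRL. The intact groups did not overlap, and the deleted groups did. Within each run of titles the deleted PRL library lay above the deleted untreated one. The averaged log2 fold change was 0.38 ± 0.14 (edgeR adjusted p = 0.98, and 0.0455 with the run term). SMAD1, SMAD2, SMAD4 and SMAD5 ranged from -0.20 to 0.044.

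In the fit without the run term, the interval of every tested receptor, co-receptor and latency gene included 0 for the averaged PRL effect. Most still allow moderate changes. Within each run the PRL library of ENG and BMP1 stood above the untreated library of its genotype, and that of ACVR2A and BMPR1A below. None of these was called with the run term, and the share of all genes with such a direction was not counted. The type I receptors ranged from -0.33 (BMPR1B) to 0.062 (TGFBR1), and the type II receptors from -0.38 (ACVR2A) to 0.086 (BMPR2). TGFBR2, the abundant TGF-beta receptor, had 312, 319.99 and 291 CPM in the intact untreated libraries, 343, 282 and 275 CPM with PRL, 305, 364 and 268 CPM in the deleted untreated libraries and 329, 346 and 215 CPM with PRL. Its groups overlapped in both pairs, and its averaged log2 fold change was -0.056 ± 0.14 (95% interval -0.37 to 0.25). The highest type I receptor ACVR1 had 39.7, 29.7 and 32.7 CPM in the intact untreated libraries, 40.4, 22.9 and 28.3 CPM with PRL, 39.2, 36.1 and 35.02 CPM in the deleted untreated libraries and 39.8, 29.2 and 29.4 CPM with PRL, and all its groups overlapped within each pair. The 5 latency and processing genes ranged from 0.02 (LTBP4) to 0.16 (LTBP2). LTBP2 itself had 605, 1228 and 1189 CPM in the intact untreated libraries, 787, 1590.2 and 1286 CPM with PRL, 688, 1213 and 1030.02 CPM in the deleted untreated libraries and 761, 1232 and 1033 CPM with PRL. Its replicates spread far more than its groups differed, and the runs of titles took 86.5% of its variation in log2 CPM. Within each run the PRL library stood above the untreated library of its genotype, in the deleted pair by small margins. TGFBI, the most abundant member, had 7327, 8263 and 12819 CPM in the intact untreated libraries, 8124, 8001 and 12869 CPM with PRL, 7956, 9998 and 14252 CPM in the deleted untreated libraries and 8649, 9478 and 13072 CPM with PRL, and its averaged log2 fold change was -0.0082 ± 0.21 (95% interval -0.46 to 0.44). TGIF1 and TGIF2 had 0.07 ± 0.13 and 0.045 ± 0.15.

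Within each receptor pair the picture was similar. For PRL with the intact I-tail, 0 members were called (0.017% of all genes) and 5 had an unadjusted p under 0.05 (2.55% of all genes), namely BMP4, PMEPA1, FSTL3, BMP2 and SMAD3. For PRL with the deleted I-tail, 0 were called (0.017% of all genes) and 3 had an unadjusted p under 0.05 (1.79% of all genes), namely BMP4, PMEPA1 and FSTL3. DESeq2 called BMP4 in the deleted pair, beside 0.113% of all genes. The titles number the libraries consecutively, and each run of 4 titles holds 1 library of every group. With a term for these runs, 4 members (BMP4, PMEPA1, FSTL3 and SMAD3) were called for the averaged PRL effect, beside 1.12% of all genes, with adjusted p of 0.00362, 0.00837, 0.0201 and 0.0455. In the deleted pair this fit called BMP4, beside 0.322% of all genes. The labels do not say that a run is a batch.

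For 4 of these 6 genes the stretch before a RefSeq start is printed, for members that were lower (BMP4) and higher (PMEPA1, FSTL3, SMAD3) with PRL. They come from RefSeq on GRCh38.p14 and hold up to 250 bases before the RefSeq start, ending where GENCODE 29 places an exon of the gene; 33 of 36 members had an entry, and BMP2, BMP7 and BMP1 had none. The window of FST, the other gene of the 6 with an entry, lies mostly in a GENCODE exon and is not printed. The BMP4 stretch is chr14:53955051-53955300 (minus strand), that of PMEPA1 chr20:57711537-57711722 (minus strand), that of FSTL3 chr19:676142-676364 (plus strand) and that of SMAD3 chr15:67065352-67065601 (plus strand). By the GENCODE 29 positions given above, the BMP4 and SMAD3 stretches lie inside the gene, before an internal start and downstream of its outermost start. Those of PMEPA1 and FSTL3 lie directly before the gene. Each reads 5′ to 3′ on the gene's strand, with matches on either strand to the SMAD motifs CAGAC and GGCGCC and the STAT motif TTCNNNGAA in capitals.
BMP4: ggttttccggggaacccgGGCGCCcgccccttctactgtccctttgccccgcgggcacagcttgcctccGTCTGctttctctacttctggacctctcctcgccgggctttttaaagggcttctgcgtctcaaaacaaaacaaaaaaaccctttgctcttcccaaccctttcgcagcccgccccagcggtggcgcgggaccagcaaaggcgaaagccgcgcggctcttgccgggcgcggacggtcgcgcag
PMEPA1: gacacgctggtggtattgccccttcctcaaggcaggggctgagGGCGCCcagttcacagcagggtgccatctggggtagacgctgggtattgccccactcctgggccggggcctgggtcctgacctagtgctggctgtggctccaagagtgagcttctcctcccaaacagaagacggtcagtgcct
FSTL3: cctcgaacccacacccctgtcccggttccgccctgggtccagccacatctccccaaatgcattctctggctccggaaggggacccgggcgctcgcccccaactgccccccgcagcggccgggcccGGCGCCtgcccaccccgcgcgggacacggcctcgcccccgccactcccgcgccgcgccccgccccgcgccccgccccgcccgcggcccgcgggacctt
SMAD3: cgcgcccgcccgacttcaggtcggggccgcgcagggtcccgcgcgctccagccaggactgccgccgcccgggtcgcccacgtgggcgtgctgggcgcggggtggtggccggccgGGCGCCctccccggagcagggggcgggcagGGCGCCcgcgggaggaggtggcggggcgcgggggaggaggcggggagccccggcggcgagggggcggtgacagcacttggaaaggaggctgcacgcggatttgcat
Of the 5 genes with an entry, 4 held GGCGCC, and FST held none of the 3 motifs in its 250 bases. In the same window 39.4% of 33 members and 16.4% of 35116 RefSeq promoters held this motif. CAGAC was matched in BMP4 alone of the 5, on the opposite strand, and by 30.3% of members and 38.0% of all promoters. TTCNNNGAA was in none of the 5, in 3.03% of members and in 6.57% of all promoters. The printed matches do not overlap one another, and a match is not a measured binding site; GGCGCC is made of G and C only, and the base composition of the promoters was not matched.

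The wider pathway was read from a list of 104 further genes, of which 77 were tested. For the averaged PRL effect 4 of the 77 rose and none fell, beside 0.119% of all genes called, and 18 were higher and 0 lower at an unadjusted p under 0.05 (3.81% of all genes). The inhibitory SMAD6, which blocks BMP receptors, rose from 14.95 ± 3.202 to 32.2 ± 5.11 CPM in the intact pair (SD, n = 3) and by 1.13 ± 0.15 (SE) in averaged log2 fold change (edgeR adjusted p = 0.00663). SKI, a corepressor of SMADs, rose by 0.97 ± 0.12 on the same scale (edgeR adjusted p = 0.00477). Among target genes the cytokine IL11 rose by 1.52 ± 0.22 (edgeR adjusted p = 0.0108) and the AP-1 gene JUNB by 0.94 ± 0.16 (edgeR adjusted p = 0.0386). Of the 26 tested other target genes 19 were above 0, with a median of 0.47, and the 21 intracellular regulators had 11 above 0 and a median of 0.019. These lists were drawn up with earlier results of these data known, so their counts are a description.

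For the I-tail deletion no member was called. In the effect averaged over both treatments 0 of 33 passed, beside 0.00566% of all genes, and 2 had an unadjusted p under 0.05, beside 2.28% of all genes; both, LTBP3 and ENG, were lower in deleted cells. The median was 0.091 over members and 0.033 over all genes. In untreated cells 0 were called (0.00566% of all genes) and 0 had an unadjusted p under 0.05 (0.837%), and in PRL-treated cells likewise 0 (0.00566%) and 0 (1.62%). No member had deleted libraries all above, or all below, the intact ones in both treatments, where 0.249% and 0.102% of all genes did. None of the 77 further pathway genes was called for the averaged deletion effect.

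**Figure D4:**
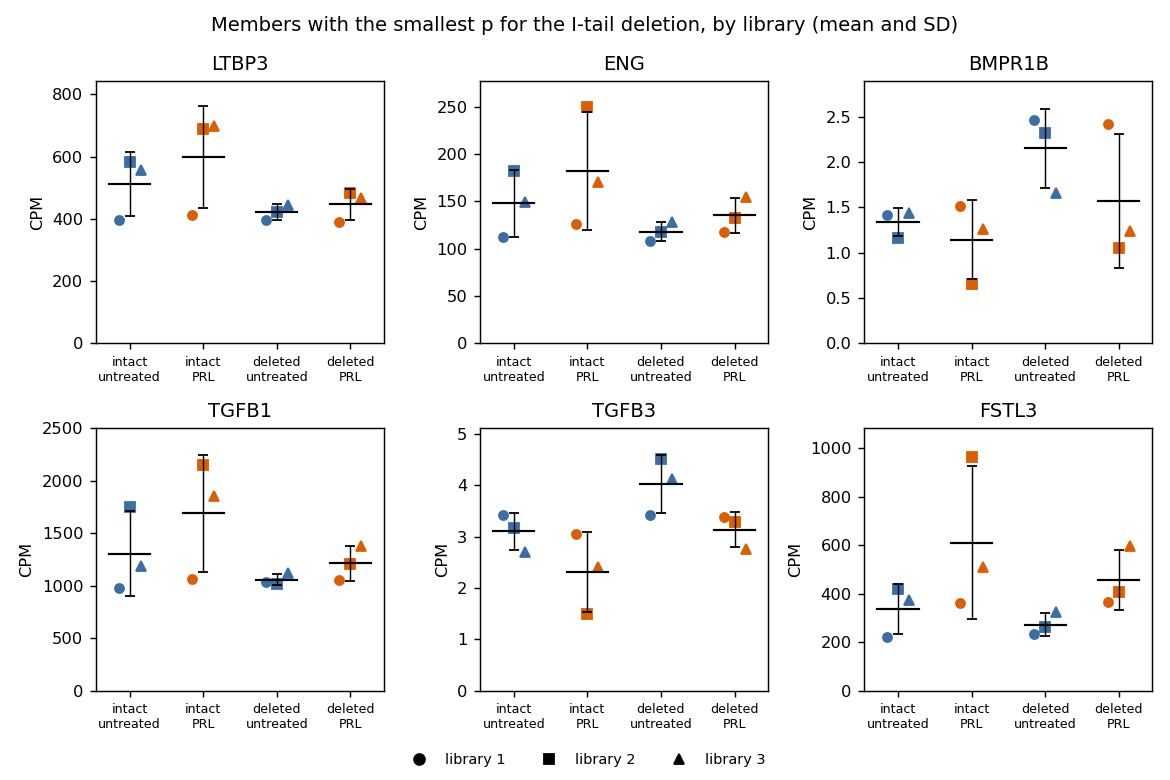
CPM of the 6 members with the smallest p for the averaged I-tail deletion effect, by group (blue untreated, orange PRL; symbols number the libraries within a group; black line and bar, mean and SD of 3). The intact groups of LTBP3, ENG, TGFB1 and FSTL3 spread more widely than the deleted ones, and each deleted group overlaps its intact group except for BMPR1B in untreated cells.

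LTBP3, which holds latent TGF-beta in the matrix, had 396, 584 and 558 CPM in the intact untreated libraries, 411, 687 and 698 CPM with PRL, 396, 423 and 446 CPM in the deleted untreated libraries and 391, 483 and 467 CPM with PRL. The first library of each group stood at 391 to 411 CPM, and the other intact libraries stood above the other deleted ones. The averaged log2 fold change was -0.35 ± 0.16 (deleted over intact; edgeR adjusted p = 0.991). ENG had 112, 182 and 149 CPM in the intact untreated libraries, 126, 249 and 171 CPM with PRL, 108, 118 and 128 CPM in the deleted untreated libraries and 118, 133 and 155 CPM with PRL, with -0.38 ± 0.17 (edgeR adjusted p = 0.991). Both genes overlapped between intact and deleted libraries in each treatment.

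TGFB1, the dominant ligand, had 977, 1752 and 1188 CPM in the intact untreated libraries, 1066, 2148 and 1853 CPM with PRL, 1037, 1014 and 1116 CPM in the deleted untreated libraries and 1051, 1204 and 1379 CPM with PRL. The deleted libraries kept to a narrow range at the low end of the intact ones. Its averaged log2 fold change for the deletion was -0.39 ± 0.19 (edgeR adjusted p = 0.991), while HNRNPUL1, which overlaps it on the opposite strand at a mean of 997 CPM, had -0.022 ± 0.12. FSTL3, with the values above, had -0.36 ± 0.24, and -0.14 without intact PRL library 2. Without that library ENG had -0.25.

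The other 2 members named for the deletion stood at a few CPM and were higher in deleted cells. The BMP receptor BMPR1B had 1.41, 1.16 and 1.44 CPM in the intact untreated libraries, 1.51, 0.657 and 1.27 CPM with PRL, 2.47, 2.32 and 1.66 CPM in the deleted untreated libraries and 2.42, 1.06 and 1.24 CPM with PRL. Its untreated groups did not overlap, its PRL groups did, and the averaged log2 fold change was 0.57 ± 0.27 (95% interval -0.015 to 1.15; edgeR adjusted p = 0.991); it was 0.34 without deleted PRL library 1. TGFB3 had 3.43, 3.17 and 2.71 CPM in the intact untreated libraries, 3.04, 1.49 and 2.41 CPM with PRL, 3.42, 4.52 and 4.13 CPM in the deleted untreated libraries and 3.38, 3.29 and 2.75 CPM with PRL, with 0.40 ± 0.19 (edgeR adjusted p = 0.991), and 0.27 without intact PRL library 2. By class, the 5 latency and processing genes lay between -0.35 and -0.035 and the 2 co-receptors at -0.38 and -0.16, whereas all 5 type I receptors, all 4 type II receptors and all 5 SMADs lay above 0, up to 0.57.

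**Figure D5:**
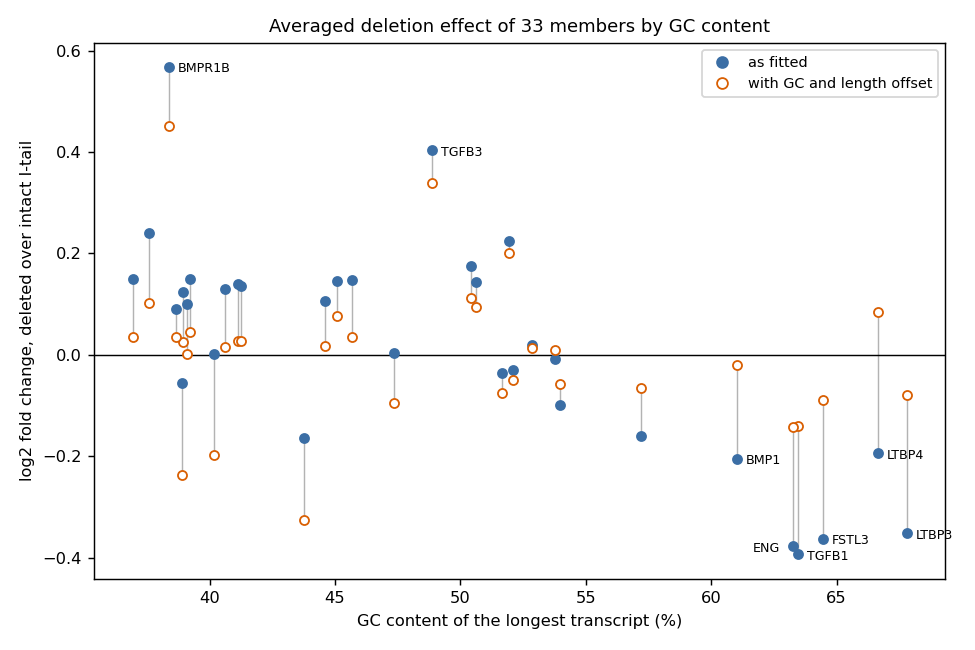
Averaged log2 fold change for the I-tail deletion of the 33 tested members against the GC content of the longest transcript in percent, as fitted (blue) and with an offset for GC content and transcript length (open orange); grey lines join the 2 values of a gene. The 6 members above 60% GC lie below 0 as fitted and nearer 0, or above it for LTBP4, with the offset.

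These deletion values differed by base composition. All 6 members above 60% GC, a split chosen after seeing the data (TGFB1, LTBP3, LTBP4, BMP1, FSTL3 and ENG), were below 0 as fitted, with a median of -0.36, and 7 of the other 27 were. With the GC and length offset the median of the 6 was -0.084, and LTBP3 had -0.079, ENG -0.14, TGFB1 -0.14 and FSTL3 -0.089. The offset takes out each library's trend with GC content over the tested genes. A shift shared by genes of high GC content thus moves toward 0 by design, whatever its origin, which was not tested. The share of all genes above 60% GC that lay below 0 was not counted. BMPR1B and TGFB3, at lower GC content, kept 0.45 and 0.34. For PRL the median of the same 6 was 0.20 as fitted and 0.047 with the offset, and FSTL3 went from 0.80 to 0.63, whereas BMP4 and PMEPA1 had -1.06 and 0.66. Across the 33 members, the correlation of a library's deviations from the gene means with GC content ran from -0.76 to 0.74, a description over genes that share each library; it was negative in all 4 libraries of the first run of titles.

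The PRL effect was compared between receptor pairs through the interaction, the PRL effect with the deleted minus that with the intact I-tail. No member was called, as no gene was (0% of all genes; 0.718% at an unadjusted p under 0.05, and 0 members). The smallest p belonged to BMP4, TGFBR3 and ACVR1B. BMP4 had -0.55 ± 0.38 (95% interval -1.37 to 0.28; edgeR adjusted p = 1), and -0.35 without intact untreated library 1. The co-receptor TGFBR3 had 8.09, 8.74 and 6.39 CPM in the intact untreated libraries, 5.505, 6.84 and 5.09 CPM with PRL, 7.59, 6.53 and 4.47 CPM in the deleted untreated libraries and 6.98, 5.86 and 4.48 CPM with PRL, with all groups overlapping and an interaction of 0.31 ± 0.36. It was 0.13 without library 3 and 0.48 without library 1 of the deleted untreated group, 0.15 without deleted PRL library 1, and 0.21 when intact untreated library 2 was left out. ACVR1B, the activin type I receptor, had 27.7, 27.6 and 29.96 CPM in the intact untreated libraries, 25.6, 25.7 and 30.8 CPM with PRL, 28.5, 29.9 and 33.2 CPM in the deleted untreated libraries and 26.1, 26.1 and 26.4 CPM with PRL. Its deleted PRL libraries lay just below the deleted untreated ones, its intact groups overlapped, and the interaction was -0.17 ± 0.21, with -0.076 without intact PRL library 3 and -0.099 without deleted untreated library 3. PMEPA1 had -0.14 ± 0.34 (95% interval -0.87 to 0.59) and FSTL3 -0.11 ± 0.48. In the fit without the run term, the median half-width of a member's interval for the interaction was 0.771. The data thus do not show that the PRL effects on these genes were alike in the 2 pairs.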

How the data were processed

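Libraries were made by polyA selection from total RNA. The authors used FastQC, Subread's featureCounts, STAR 2.7.9a and the GRCh38 build, per the submitters' processing notes; no source used here gives the annotation release or whether reads were counted by strand. The deposited table holds whole-number counts per Ensembl gene, and 1 of its 62703 entries had no values and was left out. Groups came from the genotype and treatment labels; library numbers follow accession order and only name a library.

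The 17677 genes passing filterByExpr were analysed in R 4.3.3 with edgeR 4.0.16 (TMM scaling, a mean for each of 4 groups, quasi-likelihood F test with robust dispersions). The biological coefficient of variation was 0.303, with 8 residual degrees of freedom. For each of 7 contrasts p-values were adjusted over all these genes by Benjamini-Hochberg and called at 0.05. The SE of a log2 fold change was derived from it and F. Lengths, positions and GC content came from GENCODE 29. Replicate libraries differed by a chi-square of 57.2 to 240 per degree of freedom, so none was a copy. The method was tested on simulated data.

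The 36 members and all lists were chosen with earlier results of these data known. Values in every library are given for members called in any contrast, the 6 with the smallest p for the averaged PRL effect and for the averaged deletion effect, the 3 for the interaction and the highest member per kb of each role; other pathway genes are named where called. Any others were named knowing their values. Other fits used scaling by RLE, by the upper quartile or by library size alone, no filter or a stricter one (10 counts and 1 CPM in 3 libraries), limma-voom (limma 3.58.1), DESeq2 1.42.0, only the compared groups, a term for runs of titles, and each library left out in turn. An offset for GC content and length was chosen after seeing the data.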

Additional observations from a re-analysis of the deposited data

How the results depend on the processing

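For the averaged PRL effect, 0 members were called in the edgeR fit, 1 with library size alone (BMP4, of 25 genes called), 3 without a count filter (BMP4, FSTL3 and PMEPA1, of 124), 2 with DESeq2, 4 with the title-run term and 1 with the GC and length offset. Leaving out each library gave 0 to 1; the 1 was BMP4, with an adjusted p of 0.0404 without intact untreated library 1. In the deleted pair DESeq2 and the title-run term each called 1. The other contrasts had 0 members called in every setting run. The cause of these differences was not tested.

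The members' median for PRL with the intact I-tail ran from -0.059 (without intact PRL library 1) to 0.072 over the libraries left out, and that for the deletion with PRL from -0.061 (without deleted PRL library 1) to 0.13. Comparing the named members' log2 fold changes with each alternative, 303 kept their direction and side of the threshold, none changed sign, and 12, of BMP4, PMEPA1, FSTL3 and SMAD3, passed the threshold only under the alternative.

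The labels carry no replicate numbers, so the title-run term served as the replicate block. Deviations of libraries of one run correlated at 0.0966 to 0.603 over 18 pairs, other pairs at -0.447 to 0.301, and 12 of 12 libraries correlated best with their own run. Members at a few CPM had fewer counts than the abundant ones. BMP4 had 62 to 260 counts per library, FST 54 to 207, BMPR1B 22 to 110 and TGFB3 50 to 214. Those at or near 0 could not be tested.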

Other observations

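Several abundant members varied more by run of titles than by group. LTBP1 had 252 to 296 CPM in the 4 libraries of the first run, 176 to 213 in the second and 145 to 164 in the third, with 1 library of every group in each, and the runs took 93.5% of its variation in log2 CPM. TGFBI had 7327 to 8649, 8001 to 9998 and 12819 to 14252 CPM, and LTBP2 605 to 787, 1213 to 1590.2 and 1030.0 to 1286 CPM. The median share taken by the runs was 51.9% over the 33 tested members and 44.2% over all tested genes, and the share taken by PRL was 11.8% and 5.39%. For BMP4 and PMEPA1, PRL took 77.7% and 67.7% and the runs 6.53% and 10.9%. The labels do not say what the runs share.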
